A study of Homo sapiens with 8 samples.

Results

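HSPA8 encodes the constitutive cytosolic HSP70, and it is described here together with 9 partner chaperone genes. These are HSPA1A and HSPA1B for the inducible HSP70, HSPH1 for HSP110, DNAJB1 and DNAJA1 for HSP40 proteins, HSP90AA1 and HSP90AB1 for cytosolic HSP90, and HSPD1 and HSPE1 for the mitochondrial HSP60 and HSP10. The genes were chosen by symbol, and each of the 10 symbols matched 1 of the 60332 rows of the expression table. HSPA8 was taken up because of its difference between eKD2 and eKD1 cells, so the differences of all 10 genes between those groups are given as a description with no test. Comparisons of either eKD group with control cells share libraries with that difference, and low eKD2 values enter both it and the eKD2 comparison. The comparison of oxygen levels in control cells shares no library with it. The genes were also chosen with earlier results of these data known, so no count of them is an independent test. All 10 genes passed the filter on low values, 1 FPKM or more in no fewer than 2 libraries, as did 15372 genes in all, and these were tested.

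RNA was sequenced from SK-N-MC, an established Ewing sarcoma cell line, in 8 libraries that fall into 4 groups of 2. All cells carried lentiviral dCas9-KRAB, a dead Cas9 fused to a transcriptional repressor, and were polyclonal pools selected with puromycin. Control cells held the vector with no guide, while eKD1 and eKD2 cells each held a different guide that placed the repressor at a GGAA repeat, the enhancer of LOXHD1. Controls were grown under normoxia or hypoxia (1% oxygen for 16 h), both eKD groups under hypoxia, and no eKD library from normoxia was analysed here. The treatment protocol of the eKD2 libraries speaks of eKD1 alone, and their titles, which name eKD2, were followed. The duplicates are not said to come from separate infections, so p-values measure the spread between these libraries only.

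Heat shock proteins hold unfolded proteins and help them fold. HSP40 proteins deliver a client to HSP70 and start its ATP cycle, HSP110 releases the nucleotide, and HSP90 takes over clients such as kinases and receptors, while HSP60 and HSP10 form a folding chamber in mitochondria. In stress, HSF1 trimers bind heat shock elements, which are inverted repeats of the GAA triplet, and activate these genes. HSPA8, HSP90AB1, HSPD1 and HSPE1 are also expressed at high levels without stress, and HSPA1A and HSPA1B are the members known for low basal levels.

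LOXHD1, the targeted gene, was listed at 156 and 169 FPKM in control normoxia, 93.0 and 91.1 in control hypoxia, 17.3 and 15.0 in eKD1 and 11.7 and 11.8 in eKD2. Its log2 difference from control hypoxia was -2.44 in eKD1 (SE 0.0957, limma adjusted p = 0.0371) and -2.87 in eKD2 (SE 0.0657, limma adjusted p = 0.00617). As a check of hypoxia, the log2 difference between control hypoxia and control normoxia was 2.19 for LDHA, a glycolytic HIF target (limma adjusted p = 0.0014), and -1.58 for the HIF1A transcript (limma adjusted p = 0.00809). The Ewing sarcoma markers CD99, FLI1, NKX2-2, STEAP1, NR0B1 and LIPI were above 0 in all 8 libraries, the lowest being LIPI at 10.8 to 57.2 FPKM. Of the markers of other cell types, EPCAM was at 3.39 to 5.80 FPKM, PTPRC at 4.87 to 23.8 (22.5 and 23.8 in control normoxia, 4.87 and 5.39 in control hypoxia, 10.0 and 9.59 in eKD1 and 14.3 and 13.5 in eKD2), DCN at 131 to 153 and MYOD1 at 0 to 0.789, and their part in the results was not tested. Column totals ran from 865107 to 1041457 FPKM. The absolute depth is unknown, and the relative depth, read from the size of low values, was 55.7% to 100% of the deepest library.

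HSPA8 lies on chromosome 11 (GRCh37, chr11:122928197-122933938, minus strand), its exons cover 4849 bases and its introns hold the small nucleolar RNAs SNORD14C, SNORD14D and SNORD14E. Promoter windows of 300 bases, from 250 before to 50 after a start site, were taken from RefSeq on GRCh38.p14, and all 10 genes matched by symbol with 16 windows in all. They were searched for the heat shock element pair GAANNTTC or TTCNNGAA and for the triple GAANNTTCNNGAA or TTCNNGAANNTTC, which contains 2 overlapping pairs. Each form of the pair is its own reverse complement and the forms of the triple are each other's, so both strands were covered. The windows of HSPA8 and DNAJA1 are shown because these genes had the most similar profiles, HSP90AA1 as an abundant member, HSPA1A as the inducible HSP70 and HSPD1 because its window reaches toward the HSPE1 start. Capitals mark the matches, and the sequences run 5′ to 3′ on the strand of the gene.
HSPA8 (chr11:123062087-123062386, minus strand): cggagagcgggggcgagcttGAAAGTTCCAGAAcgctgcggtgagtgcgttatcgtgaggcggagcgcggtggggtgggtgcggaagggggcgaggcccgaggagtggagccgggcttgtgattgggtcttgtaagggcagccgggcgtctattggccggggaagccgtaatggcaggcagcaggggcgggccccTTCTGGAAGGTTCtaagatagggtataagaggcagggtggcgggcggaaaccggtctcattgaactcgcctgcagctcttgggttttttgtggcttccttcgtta
DNAJA1 (chr9:33025023-33025322, plus strand): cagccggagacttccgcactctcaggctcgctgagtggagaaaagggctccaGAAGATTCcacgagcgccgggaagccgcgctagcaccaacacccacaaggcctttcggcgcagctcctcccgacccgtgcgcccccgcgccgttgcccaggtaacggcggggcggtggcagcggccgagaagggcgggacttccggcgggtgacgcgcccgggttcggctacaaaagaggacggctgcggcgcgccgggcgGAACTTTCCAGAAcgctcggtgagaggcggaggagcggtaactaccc
HSP90AA1 (chr14:102086995-102087294, minus strand, the second of 2 windows): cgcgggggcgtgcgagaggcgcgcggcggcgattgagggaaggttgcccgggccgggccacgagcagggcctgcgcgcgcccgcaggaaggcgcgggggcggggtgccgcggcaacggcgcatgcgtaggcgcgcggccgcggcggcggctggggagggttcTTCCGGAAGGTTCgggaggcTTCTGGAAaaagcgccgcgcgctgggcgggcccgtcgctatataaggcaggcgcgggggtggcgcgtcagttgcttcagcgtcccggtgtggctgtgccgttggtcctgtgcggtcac
HSPA1A (chr6:31815293-31815592, plus strand): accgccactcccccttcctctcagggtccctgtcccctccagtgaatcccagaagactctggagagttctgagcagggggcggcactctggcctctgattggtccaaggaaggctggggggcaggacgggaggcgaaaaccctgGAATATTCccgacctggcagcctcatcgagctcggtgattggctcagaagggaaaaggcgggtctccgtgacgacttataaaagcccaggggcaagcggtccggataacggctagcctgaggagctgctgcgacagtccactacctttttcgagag
HSPD1 (chr2:197499791-197500090, minus strand, the second of 2 windows): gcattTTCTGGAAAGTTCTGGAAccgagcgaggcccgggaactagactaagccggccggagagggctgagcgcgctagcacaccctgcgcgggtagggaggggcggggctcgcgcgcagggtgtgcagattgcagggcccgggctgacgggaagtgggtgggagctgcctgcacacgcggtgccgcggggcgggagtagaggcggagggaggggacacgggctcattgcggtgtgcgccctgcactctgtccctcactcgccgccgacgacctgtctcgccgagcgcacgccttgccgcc

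The HSPA8 window held 2 triples, GAAAGTTCCAGAA starting at position -230 and TTCTGGAAGGTTC starting at -55 relative to the start site. The DNAJA1 window held a triple starting at position 3, inside the transcript, and a single pair starting at -198. HSP90AA1 held TTCCGGAAGGTTC at -88 and a further pair at -68, and HSPA1A held only the pair GAATATTC at -106. The pair was found in 9 of the 16 windows, from 8 of the 10 genes, and in 13.5% of all 35116 promoter windows. The triple was found in 5 of the 16 windows, those of HSPA8, DNAJA1, HSP90AA1, HSP90AB1 and HSPD1, and in 0.49% of all windows. HSPD1 and HSPE1 are divergent genes. The start site of the second HSPD1 window lies 539 bases from the HSPE1 start, and the run of elements in the HSPD1 window lies 228 bases from that HSPD1 start and 294 bases from the HSPE1 start, outside the HSPE1 window. No match was found in the windows of HSPH1 and HSPE1. Only exact triplets were searched, so an element with a changed base would be missed in any window. The group was put together from genes known as HSF1-regulated, so a share of elements above that of all windows was built into the choice. A match is a description of the letters and not evidence of binding.

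HSPA8 was listed at 2701 and 2524 FPKM in control normoxia, 1738 and 1687 in control hypoxia, 2244 and 2149 in eKD1 and 639 and 679 in eKD2. The order was control normoxia, eKD1, control hypoxia and eKD2, and no neighbouring groups in this order overlapped. The group means were 2613 ± 126 FPKM in control normoxia, 1712 ± 35.8 in control hypoxia, 2196 ± 67.5 in eKD1 and 659 ± 28.0 in eKD2 (SD, n = 2). The mean in eKD2 was thus 38.5% of that in control hypoxia, 30.0% of that in eKD1 and 25.2% of that in control normoxia. By FPKM, HSPA8 ranked 26th and 31st among all genes in control normoxia, 101st and 97th in control hypoxia, 58th and 59th in eKD1 and 185th and 173rd in eKD2. In bulk RNA, fewer cells expressing a gene and less RNA per cell cannot be told apart.

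**Figure D1:**
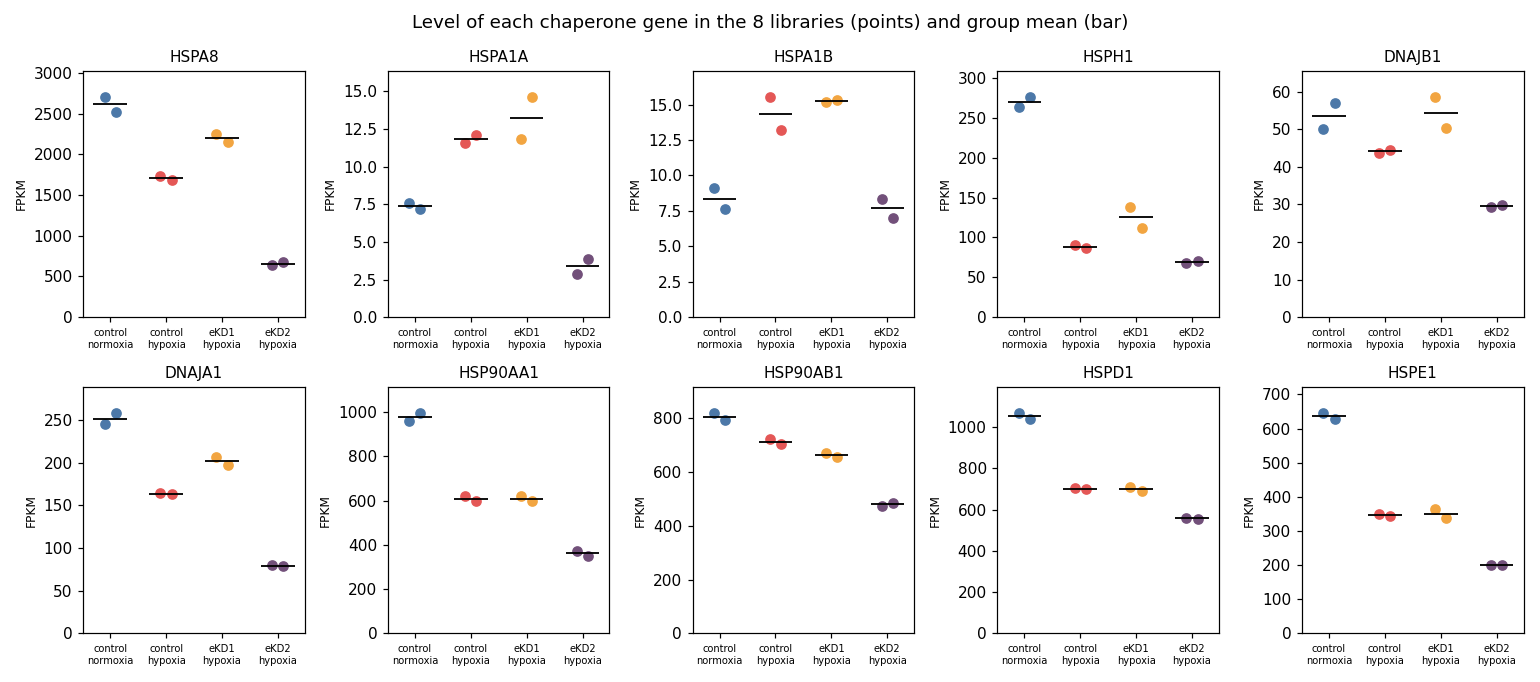
FPKM (vertical axes, starting at 0) of each of the 10 chaperone genes in the 4 groups, with 1 point per library and a bar at the mean of 2 libraries. HSPA8 sat at 639 and 679 FPKM in eKD2 against at least 1687 in the other 6 libraries, and HSPA1A and HSPA1B had their lowest values in eKD2 and in control normoxia.

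The first comparison asked what 16 h of hypoxia did to the chaperone genes in control cells. HSPA8 and its partners were lower in hypoxia, except for the inducible pair HSPA1A and HSPA1B, which were higher. On log2(FPKM + 1), 7 of the 10 fell and 2 rose at a limma adjusted p under 0.05, while 16.0% of all genes tested fell and 16.2% rose. The median difference of the 10 genes was -0.60, against 0.01 over all genes tested. In 8 of the 10, both hypoxia libraries were below both normoxia libraries, which held for 34.5% of all genes tested, and in HSPA1A and HSPA1B both were above, which held for 35.9%.

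HSPH1, the nucleotide exchange factor of HSP70, had the largest fall. It went from 264 and 276 FPKM in control normoxia to 90.4 and 86.2 in control hypoxia, a log2 difference of -1.60 (SE 0.0554, limma adjusted p = 0.00513). HSPE1, the lid of the mitochondrial folding chamber, was at 644 and 628 FPKM in normoxia and 351 and 345 in hypoxia (-0.87, SE 0.0387, limma adjusted p = 0.00653). HSPD1, the chamber itself, was at 1066 and 1037 FPKM in normoxia and 706 and 697 in hypoxia (-0.58, SE 0.0357, limma adjusted p = 0.00717). The pair shares its promoter region, and the ratio of HSPE1 to HSPD1 was 0.604 and 0.606 in control normoxia and 0.498 and 0.494 in control hypoxia.

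HSPA8 in control hypoxia was 65.5% of its level in control normoxia, a log2 difference of -0.61 (SE 0.0482, limma adjusted p = 0.00832). DNAJA1, which recruits clients to HSPA8, moved by almost the same amount, from 245 and 258 FPKM to 164 and 163 (-0.62, SE 0.0494, limma adjusted p = 0.00837). HSP90AA1, the inducible HSP90, was at 962 and 994 FPKM in normoxia and 622 and 597 in hypoxia (-0.68, SE 0.0426, limma adjusted p = 0.00728). HSP90AB1, the constitutive HSP90, was at 817 and 793 FPKM in normoxia and 720 and 702 in hypoxia, the smallest of the called falls (-0.18, SE 0.0383, limma adjusted p = 0.0389). The ratio of HSP90AA1 to HSP90AB1 was thereby 1.18 and 1.25 in normoxia and 0.863 and 0.850 in hypoxia.

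DNAJB1, the heat-inducible HSP40, was at 50.1 and 56.9 FPKM in normoxia and 43.6 and 44.5 in hypoxia, and its difference of -0.27 did not pass (SE 0.0896, limma adjusted p = 0.0947). HSPA1A was at 7.60 and 7.20 FPKM in normoxia and 11.6 and 12.1 in hypoxia (0.61, SE 0.112, limma adjusted p = 0.0285). HSPA1B was at 9.10 and 7.63 FPKM in normoxia and 15.5 and 13.2 in hypoxia (0.71, SE 0.153, limma adjusted p = 0.0386). The groups did not overlap for either gene. At such low values the 1 FPKM added before the logarithm understates the change. HSPA1A and HSPA1B are near-identical copies whose reads the counting could split in any way, so their sum is given too, at 16.7 and 14.8 FPKM in normoxia and 27.1 and 25.3 in hypoxia. The ratio of HSPA8 to this sum was 162 and 170 in normoxia and 64.2 and 66.7 in hypoxia.

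The 2 rises depended on the scale, and both kept their calls with median-of-ratios scaling but not with equal totals. The normoxia libraries had the lowest FPKM totals, at 865107 and 877580 against 1041457 and 1018475 in control hypoxia, and scaling all libraries to equal totals moved the median of all genes in this comparison to -0.19. Under that scaling HSPA1A was at 0.39 (limma adjusted p = 0.0731) and HSPA1B at 0.49 (limma adjusted p = 0.0765), so that neither passed, while DNAJB1 passed at -0.51 (limma adjusted p = 0.0212). The relative depth was 76.0% and 55.7% in control normoxia and 100% and 96.1% in control hypoxia, and its part in these results was not tested. With any 1 library left out, 1 group rests on a lone library, so only log2 differences are given. HSPA8 was then at -0.66 to -0.56, HSPA1A at 0.58 to 0.64 and HSPA1B at 0.60 to 0.83.

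The second comparison asked what each enhancer guide did in hypoxia, and the control hypoxia libraries are shared with the first. In eKD1, 0 of the 10 genes passed in limma, against 0.0651% of all genes tested, or 10 genes. At an unadjusted p under 0.05 there were 4 of the 10, against 21.7% of all genes. These 4 were HSPA8, HSPH1, DNAJB1 and DNAJA1, which were also the members with both eKD1 libraries above both control hypoxia libraries, as 27.6% of all genes were. HSPA8 differed by 0.36 (SE 0.0417, limma adjusted p = 0.102), DNAJA1 by 0.30 (SE 0.0495, limma adjusted p = 0.12), HSPH1 by 0.49 (SE 0.123, limma adjusted p = 0.162) and DNAJB1 by 0.29 (SE 0.0986, limma adjusted p = 0.22). When all 8 libraries shared 1 fit, HSPA8 (limma adjusted p = 0.0227) and DNAJA1 (limma adjusted p = 0.0355) passed as higher. In that fit 444 of all 15372 genes tested passed as higher and 317 as lower. A p that misses the threshold does not show that levels were equal.

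The other 6 genes lay close to control hypoxia in eKD1. HSP90AA1 was at 623 and 597 FPKM in eKD1, HSPD1 at 708 and 690 and HSPE1 at 365 and 337, with log2 differences of 0.00, -0.00 and 0.01, and for each of them the eKD1 and control hypoxia libraries overlapped. HSP90AB1 was at 671 and 653 FPKM, below both control hypoxia libraries as 26.0% of all genes were (-0.10, limma adjusted p = 0.25). HSPA1A was at 11.8 and 14.6 FPKM and HSPA1B at 15.2 and 15.3, with both overlapping control hypoxia. HSPA8 accounted for 44.5% and 44.6% of the summed FPKM of the 10 genes in eKD1, against 39.0% and 38.8% in control hypoxia.

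In eKD2, all 10 genes were lower than in control hypoxia in both libraries, which held for 26.4% of all genes tested. Of the 10, 8 fell at a limma adjusted p under 0.05 and 0 rose, while 3.81% of all genes tested fell and 5.80% rose. The median difference of the 10 genes was -0.77, against 0.05 over all genes tested. Without a variance trend in limma none of these 8 passed, with adjusted p from 0.0535 to 0.093. In that setting 14 of all 15372 genes tested fell and 14 rose. With any 1 library left out, 1 group rests on a lone library, so only log2 differences are given. All 10 genes stayed lower, with HSPA8 at -1.42 to -1.33 and HSPD1 at -0.34 to -0.32.

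Of the HSP70 system, HSPA8 had a log2 difference of -1.38 (SE 0.0461, limma adjusted p = 0.012). DNAJA1 was at 80.3 and 78.5 FPKM in eKD2, which is 48.6% of control hypoxia (-1.03, SE 0.0463, limma adjusted p = 0.0207). DNAJB1 was at 29.2 and 29.8 FPKM (-0.56, SE 0.0646, limma adjusted p = 0.0331). HSPA1A was at 2.89 and 3.84 FPKM, the largest log2 difference of the 10 and the one with the widest error (-1.56, SE 0.163, limma adjusted p = 0.0305). HSPA1B, at 8.33 and 7.01 FPKM, did not pass (-0.82, SE 0.150, limma adjusted p = 0.0545), and neither did HSPH1, at 68.1 and 70.5 FPKM (-0.35, SE 0.0580, limma adjusted p = 0.0503). The sum of HSPA1A and HSPA1B was 11.2 and 10.9 FPKM, below every other library, and 27.1 and 25.3 in control hypoxia. The ratio of HSPA1A to HSPA1B was 0.347 and 0.547 in eKD2 and 0.745 to 0.952 in the other libraries. How far the HSPA1A difference rests on the split of reads between these near-identical copies was not tested.

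Of the HSP90 and HSP60 systems, all 4 genes fell in eKD2. HSP90AA1 was at 372 and 351 FPKM (-0.75, SE 0.0495, limma adjusted p = 0.0273) and HSP90AB1 at 474 and 484 (-0.57, SE 0.0364, limma adjusted p = 0.0273). HSPE1 was at 202 and 200.5 FPKM (-0.79, SE 0.0384, limma adjusted p = 0.0242), and HSPD1, with the smallest difference of the 10, was at 561 and 553 (-0.33, SE 0.0336, limma adjusted p = 0.0305). The ratio of HSPE1 to HSPD1 was 0.359 and 0.363, lower than in any other library, and the share of HSPA8 in the summed FPKM of the 10 genes was 26.2% and 27.6%. That sum was 2437 and 2457 FPKM in eKD2, 4461 and 4347 in control hypoxia, 5042 and 4815 in eKD1 and 6766 and 6582 in control normoxia.

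**Figure D2:**
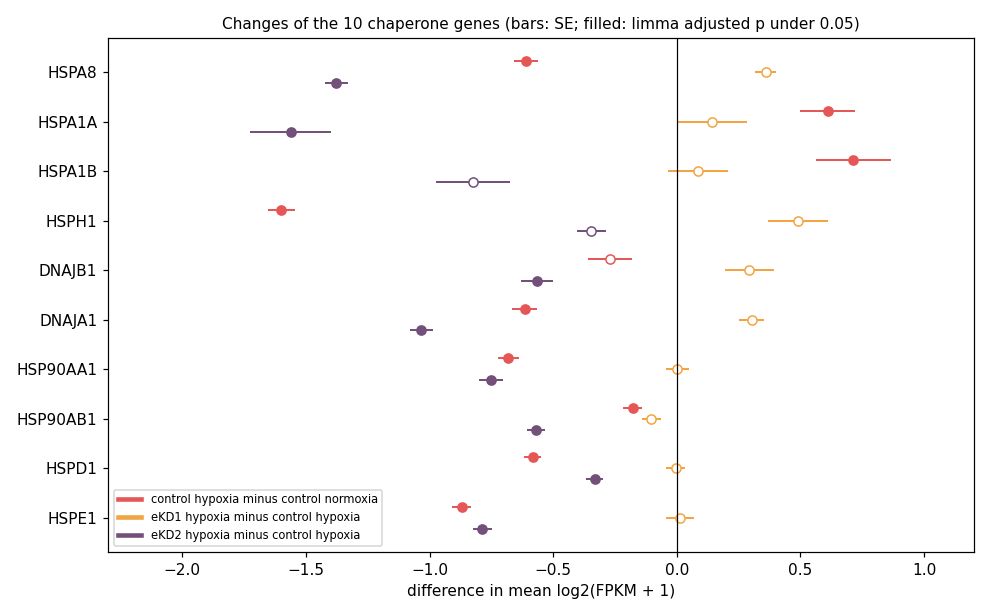
Difference in mean log2(FPKM + 1) (horizontal axis) of each chaperone gene for control hypoxia against control normoxia and for eKD1 and eKD2 against control hypoxia, with bars for the SE and filled points for a limma adjusted p under 0.05. All 10 points of eKD2 lie below 0, from -0.33 for HSPD1 to -1.56 for HSPA1A, while the points of eKD1 run from -0.10 to 0.49 and are all open.

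Between the guides, as a description with no test, all 10 genes were lower in both eKD2 libraries than in both eKD1 libraries, as were 23.3% of all genes tested. The difference of eKD2 minus eKD1 on the log2 scale was -1.74 for HSPA8, -1.70 for HSPA1A and -1.34 for DNAJA1. It was between -0.91 and -0.75 for HSPA1B, DNAJB1, HSPH1, HSPE1 and HSP90AA1, and it was -0.47 for HSP90AB1 and -0.33 for HSPD1. LOXHD1 was at 17.3 and 15.0 FPKM in eKD1 and 11.7 and 11.8 in eKD2, and its relation to the chaperone genes was not tested. For HSPA8, HSPH1, DNAJB1 and DNAJA1 the libraries of the guides stood on opposite sides of control hypoxia. The eKD1 differences of these genes did not pass in limma when each comparison was fitted alone.

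Set against control normoxia, where oxygen and guide differ together and cannot be told apart, eKD1 cells had 5 of the 10 genes lower at a limma adjusted p under 0.05, while 4.75% of all genes tested were. These were HSPH1 (-1.11), HSPE1 (-0.86), HSP90AA1 (-0.68), HSPD1 (-0.59) and HSP90AB1 (-0.28). HSPA8 at -0.25 (limma adjusted p = 0.0759) and DNAJA1 at -0.31 (limma adjusted p = 0.05475) did not pass. HSPA1A at 0.75 (limma adjusted p = 0.0657) and HSPA1B at 0.80 (limma adjusted p = 0.05002) went the other way and did not pass either. The mean of DNAJB1 in eKD1 was 102% of that in control normoxia, with overlapping libraries. In eKD2 cells, 9 of the 10 were lower, while 7.83% of all genes tested were. HSPA8 differed by -1.99 (limma adjusted p = 0.00359), HSPH1 by -1.95, HSPE1 by -1.66, DNAJA1 by -1.65 and HSP90AA1 by -1.43. HSPA1A (-0.95), HSPD1 (-0.92), DNAJB1 (-0.83) and HSP90AB1 (-0.75) also passed. HSPA1B did not, at -0.11 (limma adjusted p = 0.663), and its eKD2 libraries overlapped those of control normoxia.

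Other genes of the chaperone network were read from lists, whose medians in hypoxia and in eKD2 lay closer to that of all genes than the median of the 10 did. From 8 lists holding 99 genes, 93 could be tested. HSF1 itself was at 125 and 107 FPKM in control normoxia, 114 and 116 in control hypoxia, 116 and 99.4 in eKD1 and 127 and 121 in eKD2, and the groups overlapped except for eKD2 above control hypoxia and eKD2 above eKD1. It passed in no comparison with control hypoxia, at a log2 difference of 0.11 in eKD2 (limma adjusted p = 0.257). HSBP1, a small protein that binds the HSF1 trimer, was the one of the 5 HSF regulators that passed in hypoxia, at 0.51, and in eKD2 against control hypoxia, at -0.38. As background, the activity of HSF1 is controlled largely after translation, which transcript levels do not show.

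In hypoxia, 13 of the 93 list genes rose and 23 fell, where 16.2% of all genes tested rose and 16.0% fell. Of 19 HSP70 co-chaperones, 7 fell and 0 rose, led by DNAJC2 (-1.19), a ribosome-bound HSP40, by HSPA14 (-0.93), its HSP70 partner, and by BAG2 (-0.75), which inhibits client ubiquitination. Of 14 HSP90 co-chaperones, 5 fell and 2 rose, and STIP1, which links HSP70 to HSP90, went from 430 and 450 FPKM to 201 and 214 (-1.08, limma adjusted p = 0.00665). Of 14 subunits of the cytosolic chaperonin TRiC and of prefoldin, 5 fell and 2 rose, with CCT6A at -0.67, CCT5 at -0.65 and CCT3 at -0.64.

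In the endoplasmic reticulum, more chaperone genes rose than fell in hypoxia. Of 13 such genes, 6 rose and 2 fell, with a median of 0.24. HSPA5, the HSP70 of that compartment, was at 157 and 156 FPKM in normoxia and 276 and 276 in hypoxia (0.81, limma adjusted p = 0.00665), CALR rose by 0.64, and DNAJB11 was at -0.63. Of 14 mitochondrial folding and protease genes, 1 rose, the protease LONP1 at 0.68, and 2 fell, DNAJA3 at -0.98 and HSPA9 at -0.31. Of 14 other heat-inducible genes, IER5, a regulator of HSF1, rose by 1.43 from 2.66 and 2.35 FPKM to 8.53 and 8.33, while CHORDC1, an HSP90 partner, was at -1.20 and the small heat shock protein HSPB8 at -0.52.

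In eKD1, 0 of the 93 list genes passed in limma, and 21 had an unadjusted p under 0.05, near the 21.7% of all genes tested. In eKD2, 4 rose and 10 fell, where 5.80% of all genes tested rose and 3.81% fell, and the list medians lay between -0.18 and 0.22 against -0.77 for the 10 chaperone genes. Of 14 other heat-inducible genes, 3 fell, among them DEDD2 at -0.93 and the collagen chaperone SERPINH1 at -0.25. HSPA5 was at 160 and 151 FPKM in eKD2, overlapping control normoxia (-0.82 against control hypoxia, limma adjusted p = 0.0273), and CALR (-0.30) and PDIA4 (-0.29) were also lower.

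The 4 list genes that rose in eKD2 are no larger a share than the 5.80% of all genes tested that did. HSPA9, the mitochondrial HSP70 that feeds clients to HSPD1, was at 686 and 684 FPKM in eKD2 against 520 and 477 in control hypoxia (0.46, limma adjusted p = 0.0345), and CLPX, of the mitochondrial protease, rose by 0.60. HSPA4, an HSP110 relative of HSPH1, rose by 0.46 and the chaperonin subunit CCT5 by 0.35. PFDN5 of prefoldin (-0.54), AHSA1, the activator of the HSP90 ATPase (-0.37), and the HSP70-associated ubiquitin ligase STUB1 (-0.31) fell. All of these named changes passed at a limma adjusted p under 0.05. SNORD14D, in an intron of HSPA8, was listed at 286 FPKM in eKD2 replicate 2 and at 0 in the other 7 libraries, a value that the short length of the gene makes unreliable.

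The profile of HSPA8 over the 8 libraries was compared with 3359 tested genes outside the 10 chaperone genes. These had a mean of at least 10 FPKM and an SD of at least 0.3 on the log2 scale. HSPA8 was also compared with the other chaperone genes, without those thresholds. These coefficients are a description, since the 8 libraries are 4 groups of 2. Among the chaperone genes, DNAJA1 was the most similar (Pearson r = 0.994), followed by DNAJB1 (0.965), HSP90AB1 (0.949), HSP90AA1 (0.924), HSPE1 (0.904), HSPD1 (0.825), HSPH1 (0.797), HSPA1A (0.779) and HSPA1B (0.454). Of the genes outside this group, the 5 most similar included SRSF2 (0.992), a splicing factor, C6orf47 (0.989), MLLT11 (0.989) and B4GALT5 (0.981), a glycosyltransferase. SRSF2 was at 386 and 407 FPKM in control normoxia, 340 and 308 in control hypoxia, 378 and 375 in eKD1 and 198 and 211 in eKD2, so that it shared the order of the groups with a smaller range.

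**Figure D3:**
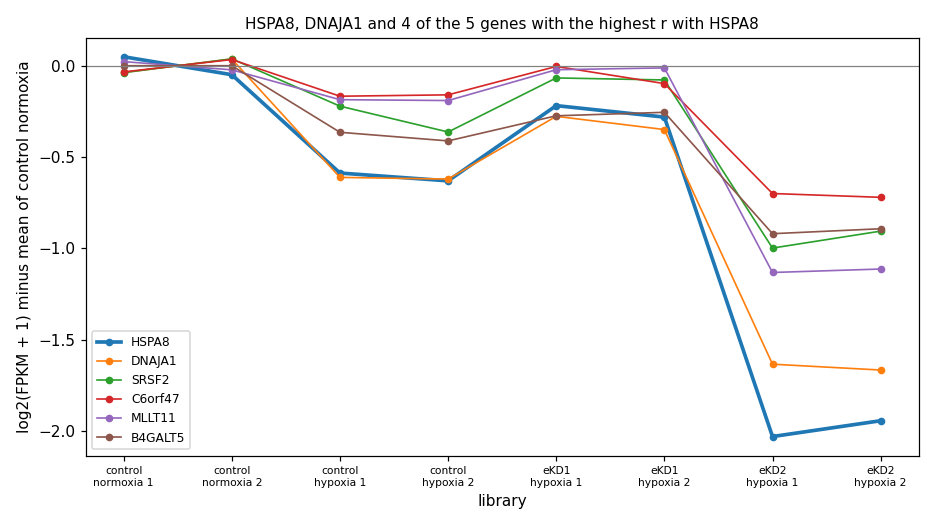
Level of HSPA8, DNAJA1 and 4 of the 5 other genes with the highest r, as log2(FPKM + 1) minus the mean of the control normoxia libraries (vertical axis), in each of the 8 libraries (horizontal axis). All 6 lines have their lowest points in eKD2, and the lines of HSPA8 and DNAJA1 drop further than those of the other 4.

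Several of these genes share sequence with other loci. Summed pseudogenes of HSPA8, of which 9 of 17 were above 0, reached 0.136% of the level of HSPA8, and those of HSPE1, of which 12 of 26 were above 0, reached 5.09%. HSPD1 and HSPE1 overlap on opposite strands (GRCh37, chr2:198351308-198381461 and chr2:198364864-198368173), DNAJB1 overlaps TECR and HSP90AA1 overlaps WDR20. HSPA8 overlaps a long non-coding RNA gene, and HSPD1 overlaps MOB4 and HSPE1-MOB4, each on the opposite strand. The libraries do not mark strand, so reads in these overlaps cannot be assigned from strand alone. HSPE1-MOB4 overlaps HSPE1 and a long non-coding RNA gene overlaps HSPA1B, each on the same strand, where strand would not separate the reads.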

How the data were processed

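The values are gene-level RNA-seq measurements in 8 SK-N-MC libraries. Single-end reads of unstranded poly-A libraries were aligned by the authors with STAR (GRCh37), gene values were made with cufflinks and cuffnorm, and counts were tested with DESeq2. The authors deposited FPKM, in which reads are scaled to transcript length and to the mapped reads of a library. How cuffnorm scaled libraries to each other is not given in the sources used here. FPKM are not counts, so no count model was used.

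Groups came from the sample titles. Values were analysed as log2(FPKM + 1), where 1 is a pseudocount. A gene was tested if 2 or more of the 8 libraries reached 1 FPKM, which kept 15372 of 60332, and 33177 genes were at 0 throughout. Each comparison of 2 against 2 libraries was fitted alone in R 4.3.3 by lmFit and eBayes of limma 3.58.1, with a trend of variance on level. Two-sided p-values were adjusted by Benjamini-Hochberg over all genes tested, with a threshold of 0.05. SD is over the 2 libraries of a group. SE is that of the difference between 2 groups, from the variance that eBayes moderates over all genes tested. The absolute depth is unknown, so no counting interval was computed.

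The 10 genes and the lists were chosen with earlier results of these data known. Named list genes are at most the 3 called genes with the largest change per list and comparison. Genes like HSPA8 are the 5 non-members with the highest Pearson r. A gene that these rules name is not reported here. HSF1 and SNORD14D were named outside this rule after their values were seen. Positions are from GENCODE on GRCh37. The fit was tested on simulated data. The alternatives tried were no filter, a filter on the mean (5 FPKM), a pseudocount of 0.1, scaling by median of ratios, equal totals, a shared fit, a replicate block, no variance trend and omission of each library.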

Additional observations from a re-analysis of the deposited data

Results flagged for a closer look

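For 4 genes the libraries of the 2 guides lay on opposite sides of control hypoxia, with both eKD1 libraries above and both eKD2 libraries below both control libraries. The log2 difference from control hypoxia of HSPA8 was 0.36 in eKD1 and -1.38 in eKD2, and that of DNAJA1 was 0.30 and -1.03. For HSPH1 it was 0.49 and -0.35, and for DNAJB1 it was 0.29 and -0.56. The difference between the guides was not tested for these genes, because HSPA8 was taken up for it, and the eKD1 differences did not pass in limma when each comparison was fitted alone. Of the 93 list genes, HSPA5 was the only one to pass between the guides in that test, at -0.85 for eKD2 minus eKD1 (limma adjusted p = 0.0461). Among all 15372 genes tested, 44 passed as higher and 18 as lower there. The HSPA5 call was lost with no filter, equal totals, the replicate block or no variance trend.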

How the results depend on the processing

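Of the 10 chaperone genes, the 2 rises in hypoxia became 1 with no filter and 0 with equal totals or with the replicate block. Of all genes, 1596 rose with no filter, 1567 with equal totals and 1319 with the replicate block, in place of 2486. The 8 falls in eKD2 became 0 with the replicate block and 0 with no variance trend, settings in which 0 and 14 of all 15372 genes tested fell. In eKD1 against control hypoxia, the shared fit gave 2 rises in place of 0, and among all genes 444 rises in place of 2. Against normoxia, the rises in eKD1 went from 0 to 1 with a filter at a mean of 5 FPKM and to 2 in the shared fit. Among all genes, 932 rises became 1032 with that filter and 2073 in the shared fit. The 5 falls in eKD1 against normoxia became 0 with no filter, with the replicate block and with no variance trend, and the 9 falls in eKD2 became 3 with the replicate block. In those settings 0, 0 and 82 of all genes fell in eKD1 against normoxia, and 8 fell in eKD2. Same-numbered libraries deviated together at r = -0.0574 to 0.126 across genes, so the numbers were not treated as pairs.

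Called list genes in eKD1 went from 0 to 5 in the shared fit, in which 444 of all genes rose and 317 fell. In eKD2 they went from 14 to 2 with no filter and to 0 with the replicate block or no variance trend. Of all genes there, 497 rose and 356 fell with no filter, 0 passed with the replicate block, and 14 rose and 14 fell with no variance trend. Against normoxia, the 18 in eKD1 became 0 with no filter or the replicate block, 31 with equal totals, 37 in the shared fit and 1 with no variance trend, and the 29 in eKD2 became 10 with no filter, 0 with the replicate block and 12 with no variance trend. The 1 between the guides became 0 with no filter, equal totals, the replicate block or no variance trend, 3 with the filter at a mean of 5 FPKM and 19 in the shared fit. The replicate block called 0 of all genes between the guides and in eKD1 against normoxia, and 43 higher and 8 lower in eKD2 against normoxia. The shared fit called 808 higher and 583 lower between the guides.

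With any 1 library left out, fits of 3 libraries called 0 of the 15372 genes, having 1 residual degree of freedom. The omission was therefore repeated in the shared fit, an alternative chosen after seeing the data, in which the lone library is assumed to vary like the others. Over both kinds of omission, the chaperone genes called were 0 to 1 for the rises and 0 to 7 for the falls in hypoxia, 0 to 8 for the falls in eKD2 and, against normoxia, 0 to 1 for the rises and 0 to 7 for the falls in eKD1 and 0 to 9 for the falls in eKD2. Called list genes were 0 to 33 in hypoxia, 0 to 9 in eKD2, 0 to 24 and 0 to 30 for eKD1 and eKD2 against normoxia, and 0 to 8 between the guides. In the shared fit alone, the falls were 6 to 7 in hypoxia and 7 to 8 in eKD2.

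Direction reversed only for differences near 0 that did not pass. Against control hypoxia in eKD1, median-of-ratios scaling gave -0.021 for HSP90AA1 and -0.011 for HSPE1, equal totals gave 0.067 for HSPD1, and omission gave -0.030 to 0.032 for HSP90AA1, -0.023 to 0.014 for HSPD1, -0.044 to 0.068 for HSPE1 and -0.024 to 0.19 for HSPA1B. DNAJB1 in eKD1 against normoxia was at -0.000956 with median-of-ratios scaling, -0.14 with equal totals and -0.086 to 0.13 with omission, and HSPA1B in eKD2 against normoxia at -0.22 to 0.0027 with omission. The cause of these changes was not tested.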
